A study of Mus musculus with 2 samples.

Results

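Retnlg neutrophils are the tumour neutrophils in these data that carry transcripts of Retnlg, which encodes the secreted protein resistin-like gamma, together with little or no Ccl3. They were picked out by the counts of their own transcripts, as barcodes with at least 200 genes and at most 10% of mitochondrial transcripts that held at least 2 of the 6 neutrophil genes Csf3r, Cxcr2, G0s2, Hdc, Il1r2 and Cd300ld. They also held at least 1 unique molecular identifier (UMI, 1 captured transcript molecule) of Retnlg, at most 2 UMIs of Ccl3 and at most 4 of Ngp. A barcode could have at most 1 UMI of C1qa, C1qb and C1qc summed, at most 1 of H2-Ab1, and 0 of Ly6c2, Cd3d, Cd3e and Cd3g. The rule found 1532 cells among 19580 kept barcodes, 765 of them in anti-PD-1 tumours and 767 in isotype tumours. Because these genes chose the cells, their levels are given as a description, and so is every difference from other neutrophils.

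Neutrophils are made in the bone marrow, where they fill their granules stage by stage, stop dividing and enter the blood as short-lived cells. Signals through Csf3r, the receptor for G-CSF, sustain them, Cxcr2 draws them out of the marrow and into tissue, and Cxcr4 holds them in the marrow. Interferon-gamma, which activated T and NK cells release, acts through a receptor on the cell surface to raise genes for antigen presentation and for guanylate-binding and immunity-related GTPases. PD-1 is an inhibitory receptor on T cells, and antibodies that block it release T cells from that restraint.

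The mice were wild-type C57/BL6 animals with orthotopic liver tumours grown from Hepa1-6, a mouse hepatoma cell line, and they received either an antibody against PD-1 or an isotype control antibody. Tumours were digested, CD45-positive cells were enriched on beads, and live CD45-positive cells were sorted before droplet capture with the 10x Genomics 3′ v2 chemistry. The labels give 1 replicate per antibody. The sources used here give neither the number of mice behind each library nor their age or the antibody dose. With 1 library per antibody the antibodies could not be tested against each other, and intervals in the text are 95% intervals that cover counting error only, not the spread between mice.

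The anti-PD-1 library held 10149 barcodes and 72148493 UMIs, and the isotype library 9683 barcodes and 67520433 UMIs. Retnlg neutrophils were shallow cells, with a median of 2113 UMIs and 728 genes in anti-PD-1 tumours and 1889 UMIs and 671 genes in isotype tumours. The median over all kept barcodes was 6396.5 UMIs in anti-PD-1 tumours and 6271 in isotype tumours. Summed over cells, the Retnlg neutrophils gave 1679657 UMIs in anti-PD-1 tumours and 1541306 in isotype tumours. The libraries shared 140 barcode sequences, which 11 anti-PD-1 and 15 isotype Retnlg neutrophils carried, and a doublet score above 0.25 fell on 2 of the cells in each library. Leaving out either set kept the ratio of every gene for which it was recomputed within the counting interval of that gene.

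Neutrophil genes outside the selection rule were present as well. Mmp9, a tertiary granule gelatinase, was found in 47.6% of the anti-PD-1 and 43.7% of the isotype cells. S100a8, a subunit of the antimicrobial calprotectin complex, was found in 97.1% of the anti-PD-1 and 98.2% of the isotype cells. After thinning every cell to 1000 UMIs, S100a8 was found in 95.8% of the anti-PD-1 and 97.5% of the isotype Retnlg neutrophils. In T cells, which should lack it, the thinned share was 4.56% in anti-PD-1 tumours and 4.76% in isotype tumours. Retnlg itself was found, at the same thinned depth, in 2.50% of anti-PD-1 and 1.47% of isotype T cells, whose median depth before thinning was 8593 UMIs in anti-PD-1 tumours and 6641 in isotype tumours. Csf3r and Cxcr2 are among the genes that chose the cells, so their shares say nothing about the name: Csf3r was found in 90.8% of the anti-PD-1 and 89.4% of the isotype cells, and Cxcr2 in 57.1% of the anti-PD-1 and 54.0% of the isotype cells.

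Many transcripts of immature neutrophils were absent or scarce, in part by construction, since the rule limited Ngp. Top2a, a gene of dividing cells, had 0 UMIs in either library, and Mpo, Elane and Fcnb, genes of neutrophil precursors, had 0 UMIs as well. Camp, a secondary granule antimicrobial peptide of immature neutrophils, had 5 UMIs over all anti-PD-1 cells and 3 over all isotype cells. Mki67 had 1 UMI in the anti-PD-1 and 4 in the isotype cells, and Prtn3 had 10 in either library. Ltf had 24 UMIs in the anti-PD-1 and 14 in the isotype cells, and Chil3 had 88 in the anti-PD-1 and 28 in the isotype cells. Lcn2, another gene of the immature list, was plentiful, in 52.9% of the anti-PD-1 and 58.0% of the isotype cells. No blood sample is among those analysed here, so the likeness to blood neutrophils was not tested. The cells were not silent for inflammatory genes. Il1b, which encodes interleukin-1 beta, stood at 15014 CPM (the gene's UMIs scaled to the same total in each library) in anti-PD-1 tumours and 12955 CPM in isotype tumours.

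Some markers of other cell types were low by construction, since the rule set Cd3d, Cd3e, Cd3g and Ly6c2 to 0 and limited C1qa, C1qb, C1qc and H2-Ab1. Of the T cell list only Trac and Trbc2 lay outside the rule, with 2 UMIs in all over the anti-PD-1 cells and 0 over the isotype cells. Lists with no gene in the rule were also at or near 0: the NK list summed to 3 in anti-PD-1 and 1 in isotype, and the hepatocyte list to 1 in anti-PD-1 and 0 in isotype. The macrophage list, its limited C1q genes included, summed to 130 CPM in anti-PD-1 tumours and 76.6 CPM in isotype tumours, of which Apoe gave 103 CPM in anti-PD-1 and 50.6 CPM in isotype (log2 ratio 1.03, or 0.52 in thinned cells), while Mrc1 had 0 UMIs. The monocyte list summed to 64.3 CPM in anti-PD-1 and 70.7 CPM in isotype cells, and the dendritic cell list to 154 CPM in anti-PD-1 and 171 CPM in isotype cells. The macrophage sum moved the same way as the interferon genes described next, and its part in those results was not tested.

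The thresholds cut through continuous counts. Retnlg had a median of 7 UMIs per cell in either library, with 119 anti-PD-1 and 123 isotype cells at exactly 1 UMI, while 453 anti-PD-1 and 439 isotype neutrophils lay just outside with 0 UMIs and the same Ccl3 limit. At the other edge 79 anti-PD-1 and 80 isotype cells held 2 UMIs of Ccl3, against 69 anti-PD-1 and 57 isotype neutrophils just outside with 3.

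The share of Retnlg neutrophils was close in the 2 libraries. They made up 7.64% (7.13 to 8.18) of kept barcodes in anti-PD-1 tumours and 8.02% (7.48 to 8.58) in isotype tumours, a difference of -0.379 percentage points (-1.13 to 0.374). Among the gated neutrophils they were 35.6% (33.6 to 37.7) of 2149 anti-PD-1 cells and 34.3% (32.3 to 36.3) of 2236 isotype cells, a difference of 1.30 points (-1.53 to 4.12). Both intervals include 0. Among the same gated neutrophils the Ccl3-high cells without Retnlg made up 21.9% in anti-PD-1 tumours and 26.3% in isotype tumours, a difference of -4.38 points (-6.90 to -1.85). The bead enrichment and the sort set which cells could be counted.

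The comparison between antibodies asks how the transcripts of these cells differed under PD-1 blockade. Of 3878 genes with at least 50 UMIs over both libraries, 233 (6.01%) were at least 1.5-fold higher and 73 (1.88%) at least 1.5-fold lower in the anti-PD-1 cells. With TMM scaling, which lowers every log2 ratio by 0.083, the counts were 160 higher and 116 lower, so the balance of higher to lower genes depends on the scaling. The median log2 ratio over all tested genes, anti-PD-1 over isotype, was 0.07, and 2392 genes (61.7%) were higher at any size.

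Interferon-gamma response genes were higher in the anti-PD-1 cells as a group. Of the 28 genes on this list, 15 passed the count minimum, all 15 were higher in the anti-PD-1 cells (61.7% of all tested genes were), and 7 were at least 1.5-fold higher (6.01% of all tested genes were). The counting interval lay wholly above 0 for 13 of the 15, against 11.8% of all tested genes. Their median log2 ratio was 0.54, and it lay between 0.46 and 0.65 over the alternative settings. Summed over the list, the level was 2503 CPM in anti-PD-1 tumours and 1630 CPM in isotype tumours. The members under the count minimum included Gbp3 with 22 UMIs in the anti-PD-1 and 7 in the isotype cells, Irgm2 with 28 in the anti-PD-1 and 14 in the isotype cells, and Cxcl9 with 4 in the anti-PD-1 and 15 in the isotype cells, while Iigp1, Ido1 and Gbp6 had 0 UMIs.

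The proximal promoters of the 5 list genes whose intervals lie farthest above 0 are shown, because all tested genes of this list were higher. Each runs from 250 bases before to 50 bases after the RefSeq start site on GRCm38.p6, 5′ to 3′ on the strand of the gene. Capitals mark matches to the letters TTCNNNGAA, the core of a gamma-activated site (GAS) of interferon-gamma target genes, or to a pair of GAAA set apart by any 2 bases, the core of an interferon-stimulated response element (ISRE) that IRF factors bind, searched on both strands.
Irgm1 promoter, chr11:48871371-48871670, minus strand: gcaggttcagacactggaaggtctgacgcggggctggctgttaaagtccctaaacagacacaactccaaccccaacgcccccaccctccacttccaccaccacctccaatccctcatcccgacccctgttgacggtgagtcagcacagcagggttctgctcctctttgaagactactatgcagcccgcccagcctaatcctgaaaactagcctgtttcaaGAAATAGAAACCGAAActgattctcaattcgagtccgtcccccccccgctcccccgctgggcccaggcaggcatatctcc
Irf1 promoter, chr11:53769764-53770063, plus strand: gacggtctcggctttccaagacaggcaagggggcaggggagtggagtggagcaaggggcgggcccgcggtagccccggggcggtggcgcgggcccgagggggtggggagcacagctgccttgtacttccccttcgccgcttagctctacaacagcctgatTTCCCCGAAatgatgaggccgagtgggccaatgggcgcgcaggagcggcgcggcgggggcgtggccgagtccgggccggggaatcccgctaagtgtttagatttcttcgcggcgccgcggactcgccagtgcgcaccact
Igtp promoter, chr11:58199306-58199605, plus strand: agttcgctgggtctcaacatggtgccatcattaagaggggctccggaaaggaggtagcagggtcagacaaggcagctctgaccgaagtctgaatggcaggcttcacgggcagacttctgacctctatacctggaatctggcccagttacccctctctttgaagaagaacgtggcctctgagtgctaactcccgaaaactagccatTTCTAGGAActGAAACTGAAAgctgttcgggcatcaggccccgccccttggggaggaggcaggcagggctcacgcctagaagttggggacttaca
Gbp2 promoter, chr3:142620413-142620712, plus strand: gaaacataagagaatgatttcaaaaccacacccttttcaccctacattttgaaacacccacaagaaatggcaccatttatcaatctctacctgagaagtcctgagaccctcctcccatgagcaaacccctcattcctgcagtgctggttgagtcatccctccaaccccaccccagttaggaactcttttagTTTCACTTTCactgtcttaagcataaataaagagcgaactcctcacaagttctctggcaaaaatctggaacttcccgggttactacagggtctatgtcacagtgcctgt
Ifi47 promoter, chr11:49076337-49076636, plus strand: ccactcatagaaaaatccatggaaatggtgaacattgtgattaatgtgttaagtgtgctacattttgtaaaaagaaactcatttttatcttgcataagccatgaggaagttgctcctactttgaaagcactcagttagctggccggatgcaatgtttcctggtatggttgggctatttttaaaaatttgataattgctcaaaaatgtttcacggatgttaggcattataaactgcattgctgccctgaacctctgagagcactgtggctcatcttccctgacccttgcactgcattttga
The Irgm1 window holds 2 overlapping ISRE matches that begin at -30 and -24 from the start site. The Irf1 window, the first of 2 RefSeq entries, holds 1 GAS match at -90, the Igtp window a GAS match at -45 and an ISRE match at -34, and the Gbp2 window 1 ISRE match on the opposite strand at -59. Ifi47 holds neither, which says only that these letters are not in this window. Of the 28 list genes, 19 were found in the RefSeq table, of which 9 hold a GAS match and 11 an ISRE match, against 8.30% and 3.44% of all 32851 promoters. The measures differ: a list gene counted if any of its RefSeq entries matched, whereas the shares of all promoters count single entries. A match is a description of the sequence, and binding was not measured.

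Irgm1, an immunity-related GTPase of cell-autonomous defence (chromosome 11, 48861968 to 48871683), had a level of 88.1 CPM in the anti-PD-1 cells and 29.2 CPM in the isotype cells. It was detected in 98 anti-PD-1 and 31 isotype cells, and its log2 ratio was 1.59 (1.10 to 2.11). Irf1, the transcription factor that carries the second wave of interferon-gamma signalling (chromosome 11, 53770014 to 53778374), had 312 CPM in the anti-PD-1 and 150 CPM in the isotype cells, a log2 ratio of 1.06 (0.83 to 1.29). After thinning, Irf1 was found in 18.6% of the anti-PD-1 and 9.88% of the isotype cells, against 27.1% of the anti-PD-1 and 15.0% of the isotype cells before it. T cells transcribe Irf1 too, with a thinned share of 19.4% in the anti-PD-1 and 15.2% in the isotype library, so they give no background for it. Irgm1 at that depth was found in 7.04% of the anti-PD-1 and 2.36% of the isotype Retnlg neutrophils, and in 3.97% of the anti-PD-1 and 3.30% of the isotype T cells. Both genes were therefore seen in a minority of cells in either library.

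Other interferon-inducible GTPases were higher in the anti-PD-1 cells too. Ifi47 had 95.3 CPM in the anti-PD-1 and 43.5 CPM in the isotype cells, a log2 ratio of 1.13 (0.71 to 1.57), and Igtp 69.7 CPM in the anti-PD-1 and 37.0 CPM in the isotype cells, a log2 ratio of 0.91 that was 1.40 in thinned cells. Gbp2, a guanylate-binding protein that coats intracellular vacuoles, had 310 CPM in the anti-PD-1 and 180 CPM in the isotype cells, a log2 ratio of 0.79 (0.57 to 1.00), which was 1.23 in thinned cells. Gbp5 had 40.5 CPM in the anti-PD-1 and 26.0 CPM in the isotype cells. Nlrc5, the class I transactivator, had a log2 ratio of 0.22 (-0.57 to 1.02), which was -0.04 in cells with at least 3 UMIs of Retnlg. Socs1, the feedback inhibitor of this pathway, had 37.5 CPM in the anti-PD-1 and 20.1 CPM in the isotype cells, a log2 ratio of 0.90.

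Cd274 encodes PD-L1, the ligand of PD-1, and is itself interferon-inducible. Its level was 607 CPM in the anti-PD-1 cells and 465 CPM in the isotype cells, a log2 ratio of 0.39 (0.25 to 0.53), which was 0.63 in cells with 0 UMIs of Ccl3. Inside the gate, cells with 1 or 2 UMIs of Ccl3 did not share this direction, on few UMIs. Cd274 had 624 CPM (168 UMIs) in anti-PD-1 and 651 CPM (174 UMIs) in isotype cells at 1 UMI of Ccl3. At 2 UMIs it had 561 CPM (101 UMIs) in anti-PD-1 and 656 CPM (100 UMIs) in isotype cells. Outside the gate, neutrophils with at least 3 UMIs of Ccl3 had more Cd274 in the anti-PD-1 library. The log2 ratio was 0.34 (0.21 to 0.47) in those with Retnlg and 0.22 (0.10 to 0.35) in those without. Among Retnlg neutrophils, cells with a Cd274 UMI made up 36.9% of thinned anti-PD-1 and 25.4% of thinned isotype cells. Before thinning they were 47.5% of anti-PD-1 and 38.3% of isotype cells. The thinned share in T cells was 8.82% in the anti-PD-1 and 8.06% in the isotype library. Cxcl10, a T cell attractant, did not give a stable value: its log2 ratio was 0.46, but -0.41 in cells with at least 3 UMIs of Retnlg and close to 0 without the anti-PD-1 cell that held most of its UMIs.

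**Figure D1:**
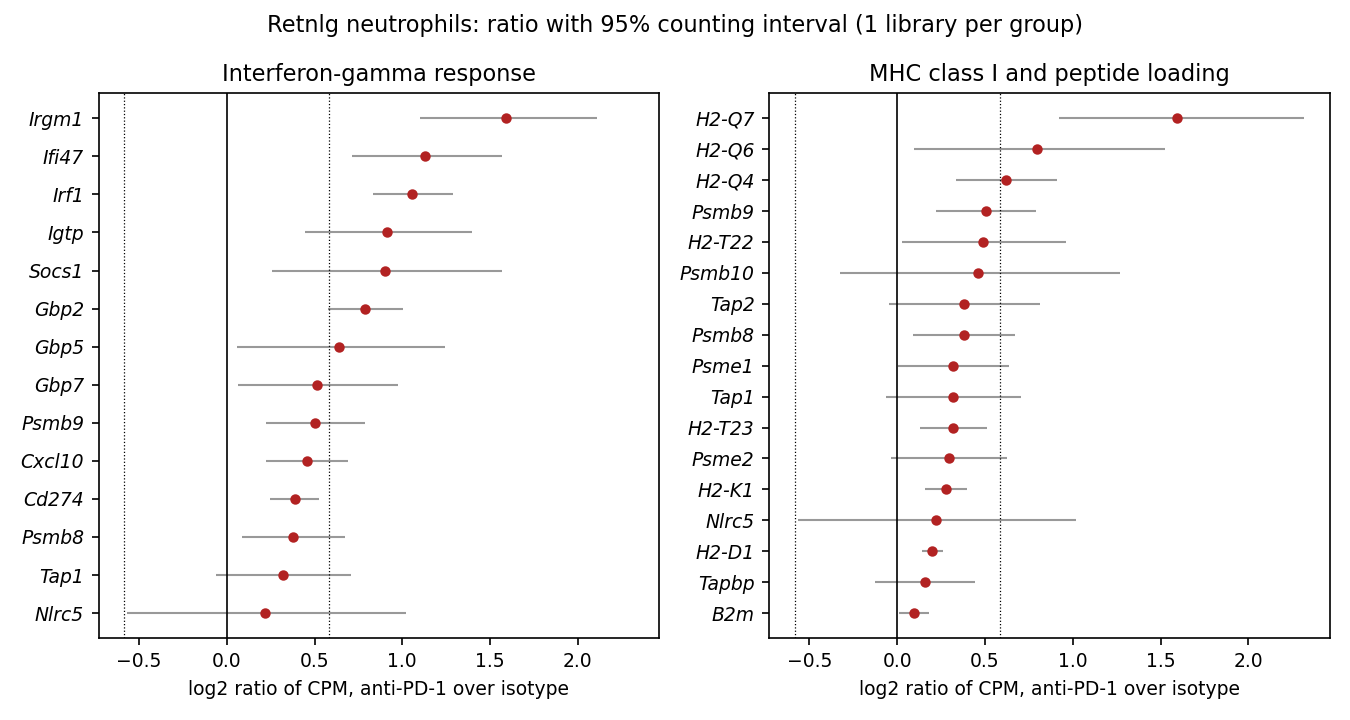
The log2 ratio of CPM, anti-PD-1 over isotype, is plotted for 14 of the 15 tested genes of the interferon-gamma list (left) and all 17 of the MHC class I list (right), with bars for the 95% counting interval and dotted lines at 1.5-fold. All points lie above 0, from Irgm1 at 1.59 to Nlrc5 at 0.22 on the left and from H2-Q7 at 1.59 to B2m at 0.09 on the right.

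Most cells held some interferon-gamma response transcript, but the transcripts were spread unevenly. At a depth of 1000 UMIs, 67.2% (63.6 to 70.6) of the anti-PD-1 cells and 58.8% (55.0 to 62.6) of the isotype cells held at least 1 of the 15 genes. At least 3 of them were found in 19.0% (16.2 to 22.1) of the anti-PD-1 and 11.1% (8.80 to 13.7) of the isotype cells, and at least 5 in 8.17% (6.26 to 10.4) of the anti-PD-1 and 3.24% (2.04 to 4.87) of the isotype cells. Before thinning, at least 5 were found in 16.3% of the anti-PD-1 and 7.69% of the isotype cells. The tenth of cells richest in these transcripts held 51.1% of the list's UMIs in anti-PD-1 tumours and 55.9% in isotype tumours.

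Genes of the type I interferon response, whose products block viral replication, were higher in smaller steps and less uniformly. Of 36 genes, 31 passed the count minimum, 24 were higher and 7 lower, 4 were at least 1.5-fold higher and 1 at least 1.5-fold lower, with a median log2 ratio of 0.29. Among all tested genes 61.7% were higher, 6.01% at least 1.5-fold higher and 1.88% at least 1.5-fold lower. The interval lay wholly above 0 for 13 of the 31 and wholly below 0 for 2, against 11.8% and 5% of all tested genes. The summed level of the list was nearly equal, at 18054 CPM in the anti-PD-1 and 17763 CPM in the isotype cells. Ifitm1, which was lower in the anti-PD-1 cells, was the largest part of that sum, at the levels given below. Isg15, a ubiquitin-like modifier, had 1860 CPM in the anti-PD-1 and 1305 CPM in the isotype cells, a log2 ratio of 0.51 (0.43 to 0.59). It was found in 56.1% of thinned anti-PD-1 and 44.5% of thinned isotype cells, and in 66.1% of anti-PD-1 and 54.0% of isotype cells before thinning, while the thinned share among 55 B cells per library was 7.27% in the anti-PD-1 and 0% in the isotype library. T cells held Isg15 often, with a thinned share of 40.6% in the anti-PD-1 and 50.7% in the isotype library, the opposite direction between antibodies. Rtp4 had 343 CPM in the anti-PD-1 and 223 CPM in the isotype cells, and Zbp1, a sensor of Z-form nucleic acid, 170 CPM in the anti-PD-1 and 105 CPM in the isotype cells. Ifitm1, which restricts viral entry, went the other way with 9136 CPM in the anti-PD-1 and 10413 CPM in the isotype cells, a log2 ratio of -0.19.

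Genes of antigen presentation through MHC class I, some of which are also on the interferon-gamma list, were higher in the anti-PD-1 cells by small steps. All 17 tested genes of 19 were higher, 3 at least 1.5-fold and 11 with an interval wholly above 0, with a median log2 ratio of 0.32. Among all tested genes these shares were 61.7%, 6.01% and 11.8%. H2-K1, a classical class I heavy chain, had 812 CPM in the anti-PD-1 and 670 CPM in the isotype cells, a log2 ratio of 0.28 (0.16 to 0.40), and H2-D1 had 3050 CPM in the anti-PD-1 and 2655 CPM in the isotype cells. Psmb9, an immunoproteasome subunit, had 158 CPM in the anti-PD-1 and 112 CPM in the isotype cells, and B2m, the light chain, 1381 CPM in the anti-PD-1 and 1293 CPM in the isotype cells. B2m, whose log2 ratio was 0.09 and 0.01 with TMM scaling, thus stood close to the median of all genes. H2-Q7 had 47.0 CPM in the anti-PD-1 and 15.6 CPM in the isotype cells, but it shares reads with close paralogs and is uncertain. MHC class II transcripts were scarce: 4 of 7 genes passed the minimum, 1 was higher and 3 lower, and Cd74 had 107 CPM in the anti-PD-1 and 125 CPM in the isotype cells. The 4 include H2-Ab1, whose low level was set by the selection rule.

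S100 genes were mostly lower in the anti-PD-1 cells. The list holds 7 S100 genes, of which 6 were lower and S100a11 was higher except with TMM scaling, and the annexins Anxa2, which was higher at 0.09, and Anxa3, which was lower at -0.21. Of all tested genes 38.3% were lower. Over these 9 genes the median log2 ratio was -0.21, and 1 gene was at least 1.5-fold lower, against 1.88% of all tested genes. That gene was the scarce S100a4, with 21 UMIs in the anti-PD-1 and 29 in the isotype cells. Its log2 ratio of -0.59 had an interval that includes 0 (-1.47 to 0.27). The interval lay wholly below 0 for S100a8, S100a9 and S100a6, or 3 of the 9, against 5% of all tested genes. S100a8 (chromosome 3, 90668978 to 90670035) had 31058 CPM in the anti-PD-1 cells and 40995 CPM in the isotype cells, a log2 ratio of -0.40 (-0.42 to -0.38). Its partner S100a9 had 60852 CPM in the anti-PD-1 and 65971 CPM in the isotype cells, a log2 ratio of -0.12 that was -0.20 with TMM scaling, and S100a6 had 3688 CPM in the anti-PD-1 and 4388 CPM in the isotype cells. The smaller step of S100a9 came from the same cells and libraries. These transcripts take a large part of each cell's total, so the level of every other gene is relative to them.

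**Figure D2:**
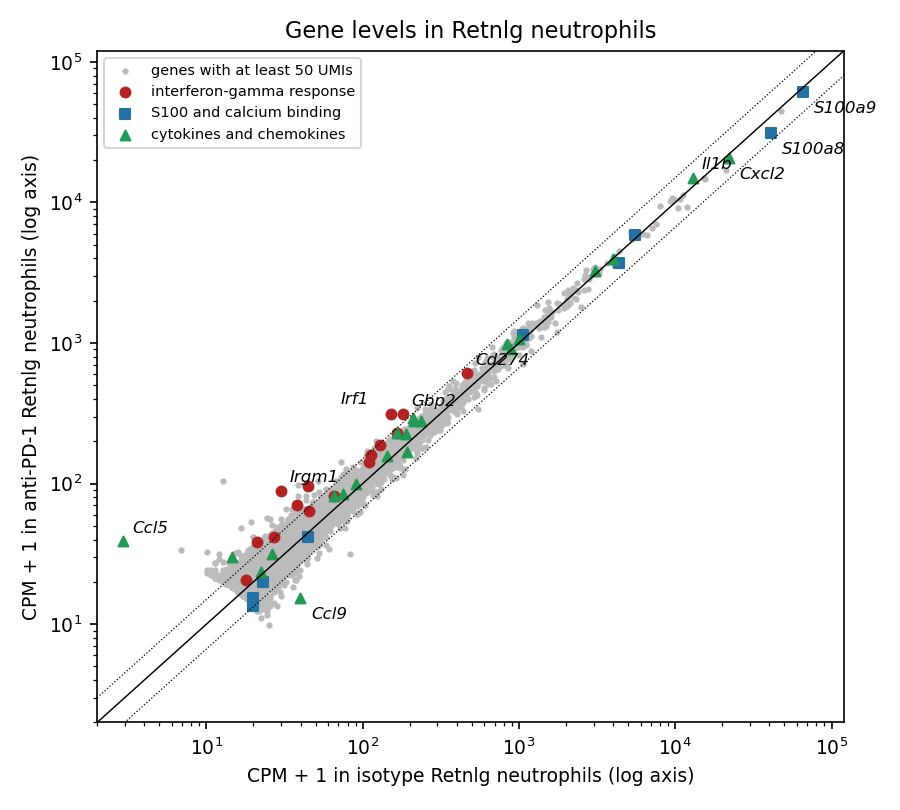
Each point is a gene with at least 50 UMIs, with its level in the anti-PD-1 Retnlg neutrophils on the vertical axis and in the isotype ones on the horizontal axis, both as CPM plus 1 on log axes, with solid and dotted lines at equality and 1.5-fold. Irgm1, Irf1 and Gbp2 lie above the upper dotted line, S100a8 lies below equality, and Ccl5, whose UMIs lay mostly in 1 cell, stands farthest above.

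Granule genes gave no common direction, while 61.7% of all tested genes were higher and 38.3% lower. In the secondary granule list 10 of 14 genes passed the minimum, 5 were higher and 5 lower, with a median of -0.02. The 10 include Ngp, which the selection rule limited. Lcn2, which binds bacterial siderophores, had 1382 CPM in the anti-PD-1 and 1700 CPM in the isotype cells, a log2 ratio of -0.30 that was -0.48 in thinned cells. Of 17 tertiary granule and secretory vesicle genes 16 were tested, 10 were higher and 6 lower, with a median of 0.06 that was -0.03 with TMM scaling. Mmp8, neutrophil collagenase, had 85.7 CPM in the anti-PD-1 and 122 CPM in the isotype cells, a log2 ratio of -0.51 that was -0.29 without its leading cell. In the primary granule list only Ctsc passed the minimum, with a log2 ratio of -0.18. The oxidase subunits that make superoxide were near the median of all genes, with 6 of 7 tested genes higher and a median of 0.06 that was -0.03 with TMM scaling.

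Of 32 cytokines and chemokines 22 were tested, 18 were higher and 4 lower in the anti-PD-1 cells, with a median log2 ratio of 0.19, while 61.7% of all tested genes were higher with a median of 0.07. The 22 include Ccl3, which the selection rule limited. The interval lay wholly above 0 for 10 of the 22, against 11.8% of all tested genes. Il1b had a log2 ratio of 0.21 (0.19 to 0.24), or 0.13 with TMM scaling. Csf1, the macrophage growth factor, had 280 CPM in the anti-PD-1 and 213 CPM in the isotype cells, and Il15, which sustains NK and memory T cells, 279 CPM in the anti-PD-1 and 236 CPM in the isotype cells. Vegfa, the angiogenic factor, had 291 CPM in the anti-PD-1 and 208 CPM in the isotype cells, a log2 ratio of 0.48. Cxcl2, a Cxcr2 ligand, had 20789 CPM in the anti-PD-1 and 21928 CPM in the isotype cells, a log2 ratio of -0.08 that was -0.16 with TMM scaling. The NF-kB and TNF response list had 17 of 24 tested genes higher, a share near that of all genes, and a median of 0.15. Its interval lay wholly above 0 for 8 of the 24 and wholly below 0 for 2, against 11.8% and 5% of all tested genes. Nfkb1 had 130 CPM in the anti-PD-1 and 86.3 CPM in the isotype cells.

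Genes of tumour adaptation went both ways. For 31 tested genes of tumour-adapted neutrophils the median was 0.08 and -0.00 with TMM scaling, with 22 higher and 9 lower, and the interval lay wholly above 0 for 11 and wholly below 0 for 5. The 31 include Ccl3, which the selection rule limited. For 17 genes of suppressive neutrophils the median was 0.13, with 12 higher and 5 lower, and the interval lay wholly above 0 for 8 and wholly below 0 for 2. Beside these lists and those below, 61.7% of all tested genes were higher and 38.3% lower. Among all tested genes 11.8% lay wholly above 0 and 5% wholly below. Arg2, an arginase on the list of suppressive neutrophils, had 538 CPM in the anti-PD-1 and 508 CPM in the isotype cells. Hypoxia and glycolysis genes split 14 higher to 15 lower with a median of -0.01. Trafficking and adhesion receptors split 12 to 12 with a median of -0.00, and Cxcr4 had 295 CPM in the anti-PD-1 and 351 CPM in the isotype cells. Csf3r and Cxcr2, which helped to choose the cells, are among these receptors. Survival and cell death genes split 14 higher to 10 lower, with a median of 0.09, and Mcl1, on which neutrophil survival depends, had 4129 CPM in the anti-PD-1 and 4080 CPM in the isotype cells. Lineage transcription factors had 18 of 23 tested genes higher and a median of 0.08 that was -0.00 with TMM scaling, and 6 tested proliferation genes split 3 to 3 with a median of -0.01.

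Several of the genes with the widest ratios rested on few cells. Ccl5, a chemokine of activated T and NK cells, had 64 UMIs in the anti-PD-1 and 3 in the isotype cells, a log2 ratio of 4.29 (2.68 to 6.61), but 49 of the 64 lay in 1 cell and the ratio was 2.20 without it. AW112010 had 44 of its 55 anti-PD-1 UMIs in 1 cell and a ratio of 0.17 without it, against 2.49 with it. Klf4, a transcription factor, was 1.80 with and 0.77 without its leading cell, and 0.39 in thinned cells. Spp1, a gene of macrophages, was 1.36 with and 0.90 without its leading cell, and 0.66 as the mean of each cell's CPM. Saa3, an acute-phase protein, had 175 UMIs in 20 anti-PD-1 cells and 18 UMIs in 4 isotype cells, a log2 ratio of 3.16 (2.45 to 3.95). Ccl9 was lower at -1.45, with 33 of its 60 isotype UMIs in 1 cell and -0.29 without that cell.

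The remaining genes named for the highest ratios were Chil3, Pink1 and Cmtr1. Chil3 had 52.4 CPM in the anti-PD-1 and 18.2 CPM in the isotype cells, but lay in only 26 anti-PD-1 and 17 isotype cells. Its thinned share was 1.83% of the anti-PD-1 and 1.03% of the isotype Retnlg neutrophils. Those shares were below the 2.21% of anti-PD-1 and 2.01% of isotype T cells. Pink1, a kinase of mitochondrial quality control, had 56.0 CPM in the anti-PD-1 and 23.4 CPM in the isotype cells. Cmtr1, an RNA cap methyltransferase, had 81.0 CPM in the anti-PD-1 and 37.6 CPM in the isotype cells. The log2 ratio of Cmtr1 was 1.11, and 0.70 in thinned cells. On the lower side Wfdc21 had 714 CPM in the anti-PD-1 and 1063 CPM in the isotype cells, a log2 ratio of -0.57 (-0.68 to -0.47), and Wfdc17, from the same family of whey acidic protein domains, had 9263 CPM in the anti-PD-1 and 11837 CPM in the isotype cells. Tle4, a corepressor, had 8.93 CPM in the anti-PD-1 and 24.0 CPM in the isotype cells. Retn, which encodes resistin, had 17.3 CPM in the anti-PD-1 and 35.0 CPM in the isotype cells. The other lower genes, from -1.12 to -0.47, were Top2b, Nsrp1, Sec61g, Fam162a, Tomm7 and Lars2, of which Sec61g was -0.66 and, in thinned cells, -1.08. Gm42418, a gene model that overlaps ribosomal RNA, had 17065 CPM in the anti-PD-1 and 21057 CPM in the isotype cells.

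Retnlg neutrophils were not uniform among themselves. From cells with 1 UMI of Retnlg to cells with 10 or more, S100a8 went up with Retnlg, with 14246 CPM at 1 UMI and 41081 CPM at 10 or more in the anti-PD-1 library, and 20281 CPM at 1 UMI and 52768 CPM at 10 or more in the isotype library. Lcn2 had 378 CPM at 1 UMI and 2126 CPM at 10 or more in the anti-PD-1 library, and 448 CPM and 2619 CPM in the isotype library. Icam1, an adhesion molecule of activated cells, ran the other way, with 170 CPM at 1 UMI and 52.6 CPM at 10 or more in anti-PD-1 tumours and 157 CPM and 50.2 CPM in isotype tumours. Cxcr4 had 402 CPM at 1 UMI and 235 CPM at 10 or more in the anti-PD-1 library, and 567 CPM and 272 CPM in the isotype library. Depth moved with Retnlg as well, and its part was not tested: the median was 1643 UMIs at 1 UMI of Retnlg and 2478.5 at 10 or more in the anti-PD-1 library, and 1597 and 2295 in the isotype library.

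The summed interferon-gamma list was higher in the anti-PD-1 cells at every level of Retnlg. At 1 UMI it summed to 3976 CPM in the anti-PD-1 and 2003 CPM in the isotype cells, a log2 ratio of 0.99. The ratio was 0.70 at 2 to 4 UMIs, 0.85 at 5 to 9 UMIs and 0.32 at 10 or more, where the sums were 1893 CPM in the anti-PD-1 and 1519 CPM in the isotype cells. S100a8 was lower in the anti-PD-1 cells at every level too, with log2 ratios of -0.51, -0.46, -0.46 and -0.36 from the lowest to the highest Retnlg. Irf1 had ratios of 0.66, 1.61, 1.16 and 0.97 over the same order, and Gbp2 1.51, 0.80, 1.58 and 0.22. The summed cytokine and chemokine list did not keep 1 direction, with ratios of 0.11, 0.21 and 0.10 below 10 UMIs. At 10 or more UMIs it was lower in the anti-PD-1 cells, with a ratio of -0.08 (-0.10 to -0.05), and Il1b was at 0.06. The difference between levels was not tested.

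**Figure D3:**
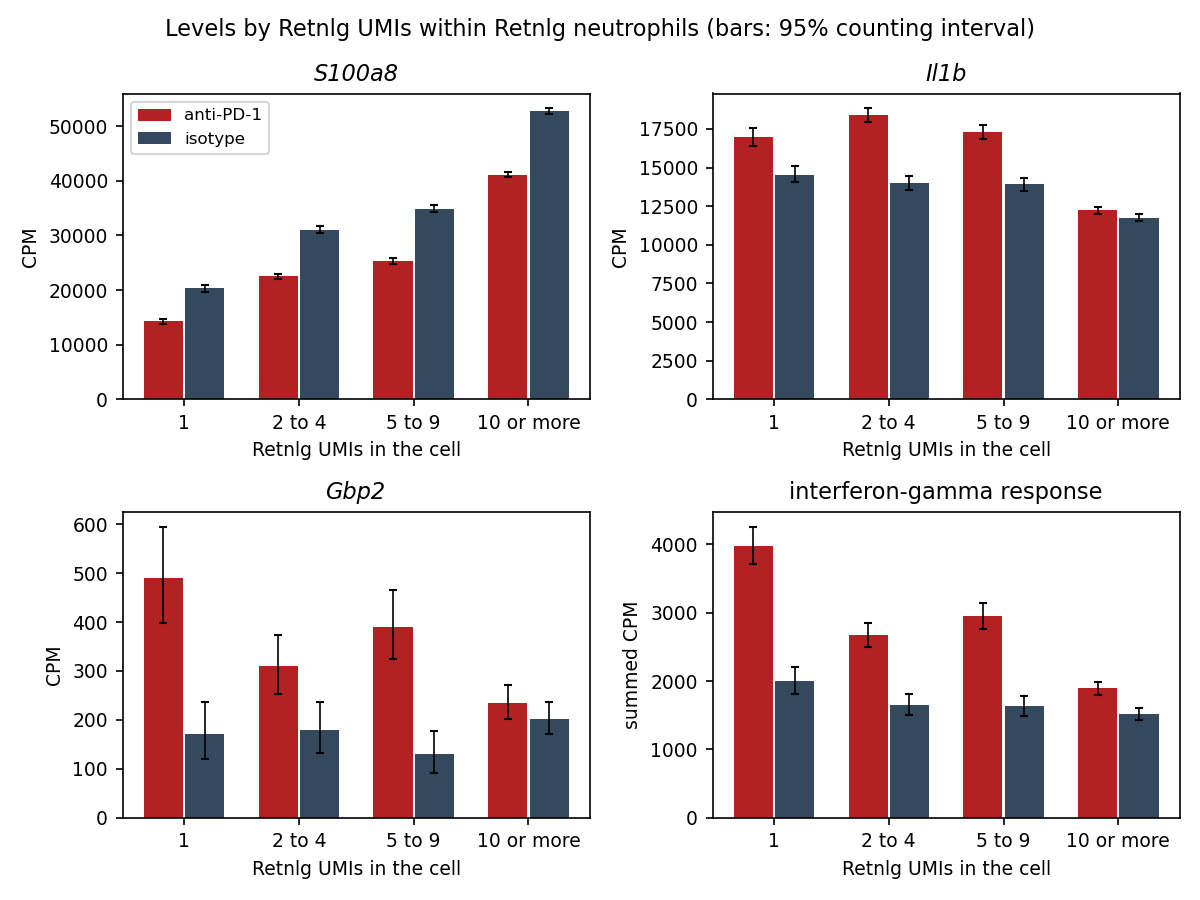
Bars give the level in CPM (vertical axes, summed over the list at lower right) in cells with 1, 2 to 4, 5 to 9 and 10 or more Retnlg UMIs (horizontal axes), for the anti-PD-1 (red) and isotype (dark blue) libraries, with 95% counting intervals. S100a8 is lower and the interferon-gamma list higher in the anti-PD-1 cells in all 4 bins.

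The other mature neutrophils of the same tumours had the same directions for the leading genes. Irgm1 had log2 ratios of 1.59 in Retnlg neutrophils, 1.11 in neutrophils high for both Retnlg and Ccl3, 1.33 in Ccl3-high cells without Retnlg and 0.95 in cells with neither. S100a8 had ratios of -0.40, -0.51, -0.33 and -0.25 in the same order, and Irf1 1.06, 0.62, 0.76 and 1.06. On the 13 interferon-gamma genes tested in all 4 gates, the median was 0.54 in Retnlg neutrophils, 0.95 in cells high for both, 0.51 in Ccl3-high cells and 0.86 in cells with neither. All 4 medians were above 0, and the differences between gates were not tested.

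Against Ccl3-high cells without Retnlg, Retnlg neutrophils had more of most secondary granule and type I interferon transcripts and less of most chemokine and hypoxia transcripts, in either library. Of 1338 genes compared, 305 (22.8%) were at least 1.5-fold higher and 340 (25.4%) at least 1.5-fold lower in both libraries, and at any size 45.2% were higher and 46% lower. These counts include genes of the selection rule, and without those 299 of 1330 genes were at least 1.5-fold higher and 339 lower. Ly6g, the surface protein by which mouse neutrophils are usually stained, had 122 CPM in the Retnlg cells and 6.81 CPM in the Ccl3-high cells of the anti-PD-1 library, and 116 CPM and 3.92 CPM in the same gates of the isotype library. Lcn2 had 1382 CPM in the Retnlg and 172 CPM in the Ccl3-high cells of the anti-PD-1 library, and 1700 CPM and 172 CPM in the same gates of the isotype library. Pglyrp1, a bactericidal granule protein, was higher by log2 ratios of 2.85 in the anti-PD-1 and 3.13 in the isotype library, and Lrg1 by 3.22 in the anti-PD-1 and 2.79 in the isotype library. Wfdc21, R3hdm4, Hp, Ripor2, Ccpg1 and Pi16 were the other leading genes. All 12 type I interferon genes compared were higher in both libraries, 11 of them at least 1.5-fold, with medians of 1.03 in the anti-PD-1 and 1.22 in the isotype library. The interferon-gamma list did not separate the gates in this way, with 4 of 7 genes higher and 2 lower in both libraries and medians of 0.02 in the anti-PD-1 and 0.13 in the isotype library. Of 6 secondary granule genes 4 were at least 1.5-fold higher and 1 at least 1.5-fold lower, with medians of 2.55 in the anti-PD-1 and 2.31 in the isotype library. Of 11 tertiary granule and secretory vesicle genes 3 were at least 1.5-fold higher, and the only primary granule gene compared was lower, by log2 ratios of -2.44 in the anti-PD-1 and -2.19 in the isotype library.

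Lower in Retnlg neutrophils than in Ccl3-high cells was Arg1, the arginase that depletes arginine, with 13.1 CPM in the Retnlg cells and 939 CPM in the Ccl3-high cells of the anti-PD-1 library, and 16.2 CPM and 621 CPM in the same gates of the isotype library. Ccl24, Fn1, Ccl2, Cxcl1, Il23a, Prdx1, Lgals1, S100a10 and Crip1 were the other leading genes on this side. Arg1, Fn1 and Ccl24 are also genes of macrophages, and the part of macrophage RNA in these values was not tested. Of 19 cytokines and chemokines, 15 were lower in both libraries and 14 at least 1.5-fold, with medians of -1.37 in either library. Among all genes compared with Ccl3-high cells, 46% were lower in both libraries and 25.4% at least 1.5-fold. Of 23 hypoxia and glycolysis genes 18 were lower and 16 at least 1.5-fold, with medians of -1.01 in the anti-PD-1 and -0.73 in the isotype library, and of 29 tumour-adaptation genes 26 were lower and 19 at least 1.5-fold. Il1b did not separate the gates, with log2 ratios of 0.12 in the anti-PD-1 and -0.08 in the isotype library.

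**Figure D4:**
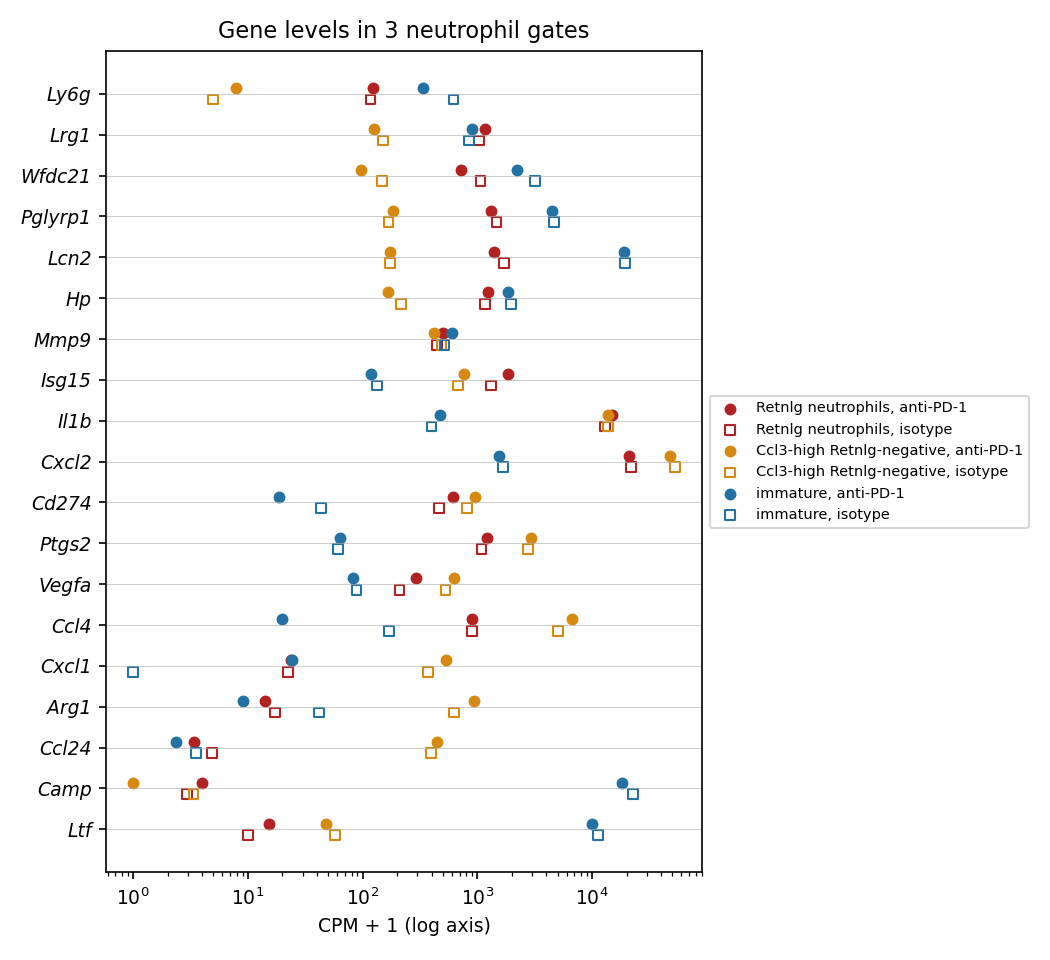
Levels as CPM plus 1 on a log axis are plotted per gene for Retnlg neutrophils (red), Ccl3-high cells without Retnlg (orange) and immature neutrophils (blue), with filled circles for the anti-PD-1 and open squares for the isotype library. Ly6g and Lcn2 lie higher and Arg1 and Ccl24 lower in Retnlg than in Ccl3-high cells in both libraries, and Camp and Ltf lie far lower in Retnlg than in immature cells. Camp was used to choose the immature cells.

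Against the 142 immature neutrophils, which held at least 10 UMIs of Ngp and 3 of Camp, Retnlg neutrophils had less of the transcripts of granule filling and division. Of 1383 genes compared, 665 (48.1%) were at least 1.5-fold higher and 391 (28.3%) at least 1.5-fold lower in both libraries, and at any size 59.7% were higher and 37.5% lower. Without the genes of the selection rule, 658 of 1373 genes were at least 1.5-fold higher and 389 lower. All 12 secondary granule genes compared were lower, 11 of them at least 1.5-fold, though Lcn2 and Pglyrp1 were still present at the levels given above. Camp is among these 12 and chose the immature cells, so its difference was set by the gate and is only a description. Ltf, the secondary granule protein lactoferrin, had 14.3 CPM in the Retnlg and 9951 CPM in the immature cells of the anti-PD-1 library, and 9.08 CPM and 11222 CPM in the same cells of the isotype library. All 13 proliferation genes compared were lower, with medians of -6.44 in the anti-PD-1 and -6.43 in the isotype library when a gene at 0 UMIs was set to 3 counts, and all 13 cytokines and chemokines were higher, with medians of 3.76 in the anti-PD-1 and 2.99 in the isotype library. Atf3, a stress-induced transcription factor, had 1381 CPM in the Retnlg and 20.3 CPM in the immature cells of the anti-PD-1 library, and 1212 CPM and 28.3 CPM in the same cells of the isotype library. Camp, Elane, Mpo, Prtn3, Fcnb, Stmn1, Cebpe, Itgb2l and Sept5 were the other leading genes on the lower side, and Steap4, Jaml, Igfbp6, Tspan13, Gpr35, Clec4n, Il15, Sirpb1b and H2-Q10 on the higher side. H2-Q10 has close paralogs and is uncertain. The immature cells were deeper, with a median of 10566 UMIs in the anti-PD-1 and 12102 in the isotype library.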

How the data were processed

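The authors deposited 1 matrix of UMI counts per library, without normalization. Per the file headers the matrices come from Cell Ranger 5.0.1, whereas version 2.1.1 and the build mm10 stand in the submitters' processing notes. The sources used here do not say how cells were called. Cells were selected by the rule given above, and doublets were kept, with scrublet scores (scanpy 1.11.5, expected rate 0.06) used in an alternative; its automatic threshold marked 1 barcode per library and had not worked.

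UMIs of the Retnlg neutrophils were summed per library and divided by the class total to give CPM, which is not divided by gene length, so levels were compared between groups and not between genes. Log2 ratios carry exact conditional binomial intervals, shares exact Clopper-Pearson intervals and their differences Newcombe intervals, all at 95%. PCR duplicates are collapsed by the UMIs, and the intervals cover counting error only. Genes with at least 50 UMIs over both libraries were tested against a fold of 1.5, where tested means compared with that fold and no p-value was computed. For shares of cells with a gene, each cell was thinned to 1000 UMIs without replacement, which left 710 anti-PD-1 and 678 isotype cells. The code was tested on simulated counts. Alternatives were mitochondrial limits of 5% and 20%, no doublet scores above 0.25, thinned cells, the mean of each cell's CPM, TMM scaling, at least 3 UMIs of Retnlg, 0 UMIs of Ccl3, no leading cell, a minimum of 20 UMIs and no shared barcodes.

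The members and the 21 gene lists were chosen with earlier results of these data known. Named genes were the 12 with the highest and 12 with the lowest interval bound nearest to 0, at 20 CPM or more in the higher library, without unnamed gene models or mitochondrial, haemoglobin, ribosomal protein, sex-linked, antigen receptor and immunoglobulin genes, plus list members. Between gates they were the 10 with the largest and 10 with the smallest log2 ratio, at 100 CPM or more. Values of some single genes are not reported here. Gm42418 is named outside this rule, for its level. Gene positions are from GENCODE vM21 on GRCm38. Computation used scipy 1.17.1, numpy 2.4.6 and pandas 2.3.3 in Python 3.11.15, with matplotlib 3.10.9 for plots and edgeR 4.0.16 in R 4.3.3 for TMM factors only.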

Additional observations from a re-analysis of the deposited data

Results flagged for a closer look

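The cytokine and chemokine genes had medians of opposite sign in mature and immature neutrophils. Their median log2 ratio, anti-PD-1 over isotype, was 0.19 in Retnlg neutrophils and -0.29 in immature neutrophils, where 12 genes passed the count minimum and 2 of them were higher. Of all 3352 genes tested in the immature cells, 1957 were higher. The difference was not tested, the immature cells numbered 59 in the anti-PD-1 and 83 in the isotype library, and the medians rest on different members of the list.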

How the results depend on the processing

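The count of genes at least 1.5-fold higher, 233, was 131 in cells thinned to 1000 UMIs and 582 with a minimum of 20 UMIs per gene. The count at least 1.5-fold lower, 73, was 116 with TMM scaling, 46 without the cell that held most UMIs of each gene and 261 with a minimum of 20 UMIs. Among genes whose interval excluded 0, Cxcl10 was -0.41 with at least 3 UMIs of Retnlg and -0.0098 without its leading cell, and the cause was not tested. With TMM scaling S100a11 was -0.0074 and Cxcl3 -0.011, where the cause is the shift of all ratios. Of the single-gene ratios recomputed under the alternatives, 1033 stayed within their counting interval, 92 moved outside it, and 4 whose interval had excluded 0 changed sign. Ratios near 0 also crossed it: Nlrc5 reached -0.04, Mcl1 -0.07, Ccl4 -0.23 and Hp -0.03. List medians ranged from 0.46 to 0.65 for interferon-gamma, from 0.18 to 0.49 for type I interferon, from 0.24 to 0.42 for MHC class I and from -0.29 to -0.12 for the S100 and calcium-binding list. The share differences ranged from -0.473 to -0.169 points of kept barcodes and from 0.399 to 1.45 points of gated neutrophils. Against Ccl3-high cells, the counts ranged from 278 to 321 higher and from 276 to 364 lower. The alternative without shared barcodes and those applied to the gates were chosen after seeing the data. No paired analysis was possible because the groups share only 1 replicate number. Depth limits detection of scarce transcripts.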

Other observations

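Receptors for microbial and antibody signals stood near the median of all genes in Retnlg neutrophils. Of 31 pattern recognition and Fc receptor genes 28 were tested, 22 were higher and 6 lower in the anti-PD-1 cells (61.7% of all tested genes were higher), with a median log2 ratio of 0.06 that was -0.02 with TMM scaling. Genes of prostaglandin and leukotriene synthesis were mostly under the count minimum: 8 of 19 were tested, 5 were higher and 3 lower, with a median of 0.11. Ptgs2, the inducible cyclooxygenase, had 1218 CPM in the anti-PD-1 and 1084 CPM in the isotype cells. Heat shock and immediate early genes, which tissue digestion is known to induce, split 14 higher to 9 lower with a median of 0.06 that was -0.02 with TMM scaling. Within that list Fos had 1962 CPM in the anti-PD-1 and 1542 CPM in the isotype cells, and Junb 6119 CPM in the anti-PD-1 and 5223 CPM in the isotype cells.

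Ccl4, which encodes a chemokine close to Ccl3, differed with Ccl3 inside the gate. In cells with 0, 1 and 2 UMIs of Ccl3 its level was 630, 1507 and 1833 CPM in the anti-PD-1 library, and 699, 895 and 2334 CPM in the isotype library. The Ccl3 limit thus cuts through cells that differ in Ccl4, and Ccl3 chose them, so these values are a description.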
